A study of Mus musculus with 27 samples.

Results

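WDR43 occupancy of mouse embryonic stem cell chromatin was compared between cells treated with DRB and cells treated with DMSO, from 1 FLAG ChIP-seq library each, 2 of the 27 samples of the study. Both libraries came from mES cells that carry Fbio-tagged WDR43 and are kept in serum with leukemia inhibitory factor, so the tag and the FLAG antibody (Sigma F1804) are common to both, and the labels give neither a dose nor a time. The DRB list holds 4426 peaks and the DMSO list 31189. A DMSO peak is called kept here when it shares at least 1 bp with a DRB peak and lost when it does not, which gave 2901 kept and 28288 lost DMSO peaks. Another 1507 DRB peaks met no DMSO peak.

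For comparison, 3 further WDR43 lists were used, 1 from Fbio-tagged cells treated with ActD (actinomycin D, an intercalator that blocks transcription) and 1 each from FB and cFB-KI cells, for which the labels give no treatment. RNA polymerase II (Pol II) lists came from other, wildtype mES cells with the control hairpin shCtl, 2 libraries each for hypophosphorylated Pol II (antibody 8WG16, written hypoP below) and for Pol II phosphorylated on serine 5 (Ser5P), and 2 for Pol II phosphorylated on serine 2 (Ser2P), for which the labels give no genotype. RNA levels came from 2 shCtl and 2 shWDR43 libraries of wildtype mES cells, so occupancy and RNA were not measured in the same cells, and no RNA was measured under DRB. The embryonic stem cell identity of the RNA samples fits their markers, with 10 of 10 stem cell markers at 1 FPKM or more and a median of 255 FPKM. Of 10 fibroblast markers, 5 reached 1 FPKM, the median of the 10 was 2.68 FPKM, and 2 of them (Dcn and Lum) were listed at 0. Their summed level was 278 and 292 FPKM in the 2 shCtl libraries. Most of it came from Vim (88.8 and 100.8 FPKM) and Fn1 (159.1 and 149.4 FPKM). Of 8 markers of differentiated derivatives, 3 reached 1 FPKM, with sums of 11.2 and 9.9 FPKM.

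WDR43 is a WD-repeat protein of the UtpA subcomplex of the small-subunit processome, the nucleolar particle that folds and cleaves the precursor of the small ribosomal subunit RNA. On protein-coding genes, Pol II starts at the promoter and commonly pauses a short way downstream, and the kinase CDK9 of the P-TEFb complex phosphorylates the paused complex to release it. DRB inhibits this kinase and so holds back productive elongation.

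Promoters that stand for the 3 outcomes described below are shown first, as RefSeq gives them on GRCm38.p6, from 250 bases before to 50 bases after the start and in the direction of the gene. Capitals mark CG dinucleotides, whose number differs between promoters with and without WDR43 peaks. Npas4, a transcription factor gene induced by neuronal activity, and Celsr3, a gene of a cadherin that guides axons, held some of the highest DRB scores at any gene end. Their DRB peaks lay further into the gene than the printed bases reach. On mm9 the Npas4 peak was at 4988924-4989356 with the start at 4989971. The Celsr3 peak was at 108729230-108729585 with the start at 108728651. Hspe1, which encodes a mitochondrial co-chaperonin, and Ncl, which encodes the nucleolar scaffold protein nucleolin, kept a much narrower peak. Utp3, a processome factor gene, and Polr2j, a Pol II subunit gene, had high DMSO scores and no DRB peak. The 6 promoters hold 21, 25, 36, 33, 30 and 25 CG dinucleotides in the order printed, and lie at chr19:4989922-4990221 (minus strand), chr9:108825795-108826094 (plus), chr1:55087898-55088197 (plus), chr1:86359406-86359705 (minus), chr5:88554212-88554511 (plus) and chr5:136116441-136116740 (plus).
Npas4: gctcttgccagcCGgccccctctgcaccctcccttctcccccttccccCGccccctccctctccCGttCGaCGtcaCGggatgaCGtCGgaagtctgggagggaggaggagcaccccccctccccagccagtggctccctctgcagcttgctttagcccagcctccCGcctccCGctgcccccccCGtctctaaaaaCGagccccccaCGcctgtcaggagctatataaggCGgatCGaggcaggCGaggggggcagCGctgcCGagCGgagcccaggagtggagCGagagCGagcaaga
Celsr3: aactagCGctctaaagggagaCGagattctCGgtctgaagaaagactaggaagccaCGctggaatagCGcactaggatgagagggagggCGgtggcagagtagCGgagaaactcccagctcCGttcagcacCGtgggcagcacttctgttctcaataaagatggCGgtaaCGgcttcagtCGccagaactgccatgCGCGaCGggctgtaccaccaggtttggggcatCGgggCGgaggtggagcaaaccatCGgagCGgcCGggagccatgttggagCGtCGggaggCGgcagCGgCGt
Hspe1: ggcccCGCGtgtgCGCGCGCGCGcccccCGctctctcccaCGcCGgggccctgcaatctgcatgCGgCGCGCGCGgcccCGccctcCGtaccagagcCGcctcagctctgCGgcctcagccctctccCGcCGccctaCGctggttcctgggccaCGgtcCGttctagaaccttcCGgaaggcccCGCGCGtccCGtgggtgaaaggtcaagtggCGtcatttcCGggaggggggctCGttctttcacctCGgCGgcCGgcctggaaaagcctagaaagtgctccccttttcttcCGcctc
Ncl: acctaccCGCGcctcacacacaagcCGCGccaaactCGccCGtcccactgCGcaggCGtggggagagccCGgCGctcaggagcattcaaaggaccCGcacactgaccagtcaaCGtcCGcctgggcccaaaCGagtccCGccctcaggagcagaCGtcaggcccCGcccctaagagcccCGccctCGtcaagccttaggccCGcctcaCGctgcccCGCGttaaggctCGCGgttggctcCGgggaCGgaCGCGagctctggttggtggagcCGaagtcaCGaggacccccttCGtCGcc
Utp3: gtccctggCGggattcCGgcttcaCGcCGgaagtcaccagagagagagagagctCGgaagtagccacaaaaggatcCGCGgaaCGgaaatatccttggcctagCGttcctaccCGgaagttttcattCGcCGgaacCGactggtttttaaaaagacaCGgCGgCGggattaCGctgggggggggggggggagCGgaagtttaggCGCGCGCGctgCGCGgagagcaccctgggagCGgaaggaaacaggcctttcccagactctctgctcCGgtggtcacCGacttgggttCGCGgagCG
Polr2j: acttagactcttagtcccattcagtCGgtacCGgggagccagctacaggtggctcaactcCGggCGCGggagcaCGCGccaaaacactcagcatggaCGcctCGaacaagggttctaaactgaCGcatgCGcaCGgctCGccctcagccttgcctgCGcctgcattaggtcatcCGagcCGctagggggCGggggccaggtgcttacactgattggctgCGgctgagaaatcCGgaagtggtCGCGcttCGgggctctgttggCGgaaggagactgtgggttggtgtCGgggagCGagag

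Peaks under DRB were fewer and narrower. DRB peaks covered 0.993 Mb of the genome and DMSO peaks 8.96 Mb. The median peak width was 173 bp under DRB (quartiles 148 and 231 bp) and 236 bp under DMSO (177 and 335 bp). The score is the authors' own value per peak, at least 50 in both lists, and it ranks peaks within a list only. Where the DRB and the DMSO score of a site are given together below, each is the value in its own list, and the difference between them is not a change in occupancy. In 2540 pairs in which 1 DRB peak met 1 DMSO peak and no other, the DRB peak had a median width of 194 bp and the DMSO peak 329 bp. The DRB peak was the narrower one in 82.3% of the pairs, at a median of 0.655 of the DMSO width, and the centres lay a median of 49.5 bp apart. Within these pairs the 2 scores ranked the sites in a loosely similar order (Spearman's rho 0.357 over 2540 pairs from 2 libraries, a description only). With 1 library per treatment there is no replicate check, so no test was made. Less WDR43 at these sites and a shallower or less enriched DRB library cannot be told apart, since depth is unknown.

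**Figure D1:**
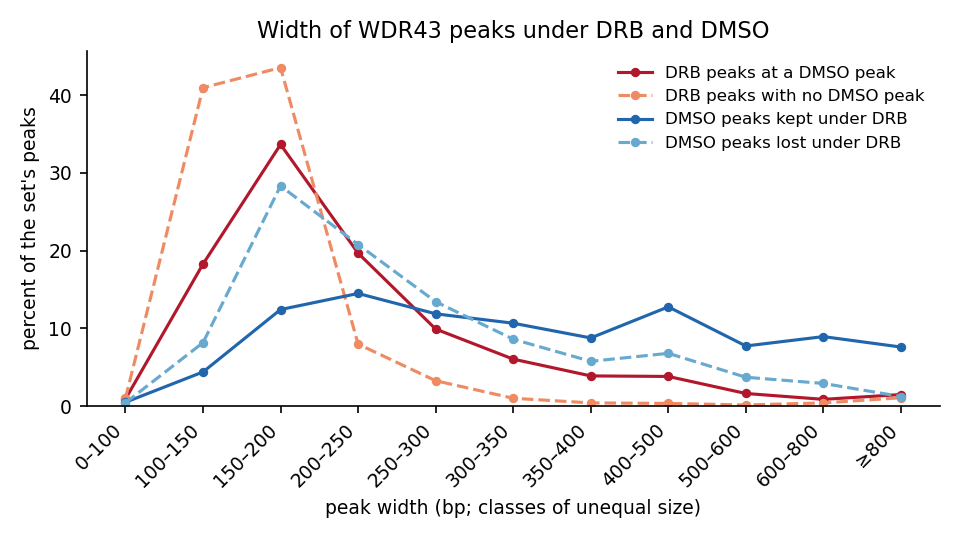
Share of peaks (vertical axis, percent of each set) by width class (horizontal axis, bp, classes of unequal size) for DRB peaks with and without a DMSO peak (red and orange) and DMSO peaks kept and lost under DRB (dark and light blue). Kept DMSO peaks were the widest set, with a median of 329 bp, and DRB peaks without a DMSO peak the narrowest, with a median of 152 bp.

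Kept DMSO peaks were stronger and wider than lost ones. Their median score was 132, against 73.9 for lost peaks, and their median width 329 bp, against 230 bp. Over all DMSO peaks 9.3% were kept (exact 95% interval 8.98 to 9.63%, which like all intervals here covers counting error only). Across deciles of the DMSO score the kept share was 3.14, 3.3, 3.94, 4.14, 5.03, 7.06, 8.75, 9.94, 16.5 and 31.2%, from the lowest scores to the highest. Of the DMSO peaks with the highest scores, taken in the same number as the DRB list holds, 27.6% were kept (26.3 to 28.9%). Kept sites were also more often in the other WDR43 maps. An FB peak met 94.1% of kept and 67.9% of lost DMSO peaks, and a cFB-KI peak 68.6% of kept and 47.2% of lost ones.

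Pol II peaks met kept sites more often than lost ones, and for hypoP, the form followed by score, this turned round among the strongest DMSO peaks. A hypoP peak of both shCtl libraries met 66.5% of kept DMSO peaks (64.7 to 68.2%) and 47.0% of lost ones (46.4 to 47.6%). For Ser5P, the initiating form, the shares were 8.65% of kept and 1.91% of lost peaks, and for Ser2P, the elongating form, 7.72% and 3.93%. In the lowest decile of DMSO scores, peaks at hypoP were kept in 6.26% and peaks without hypoP in 1.44%. In the highest decile, 27.5% of peaks at hypoP (25.7 to 29.4%) and 40.7% of those without it (37.4 to 44.1%) were kept. Once peaks at ActD peaks were left out, the 2 shares in the highest decile were 25.9 and 27.2%, with overlapping intervals.

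Gene ends kept fewer of their strongest peaks than other positions did. A peak was placed at an end of a protein-coding locus when it came within 1 kb of either end, inside the locus when it lay further in, and otherwise outside. Of kept DMSO peaks, 34.5% lay at an end (32.8 to 36.3%), 16.4% inside and 49.1% outside, and of lost peaks 33.9% (33.4 to 34.5%), 21.5% and 44.6%. Among DMSO peaks of the highest score decile, however, 23.9% of those at ends were kept (21.9 to 26.0%), against 43.5% of those inside (38.2 to 48.9%) and 39.3% of those outside (36.3 to 42.3%). Without peaks at ActD peaks the shares were 22.3% at ends (20.4 to 24.4%), 33.9% inside (28.5 to 39.6%) and 31.1% outside (28.1 to 34.2%), so the end share stayed below the other 2 beyond its interval. End peaks reach higher DMSO scores than the rest, with a median of 92.7 at ends, 69.5 inside and 72.2 outside. The end share of kept minus that of lost peaks was 0.56 percentage points over all DMSO peaks, and -5.94 points when score deciles were weighted equally. Away from ends, peaks at hypoP were kept more often, in 14.6% inside and 17.3% outside, while peaks without hypoP were kept in 4.86% and 6.13%.

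**Figure D2:**
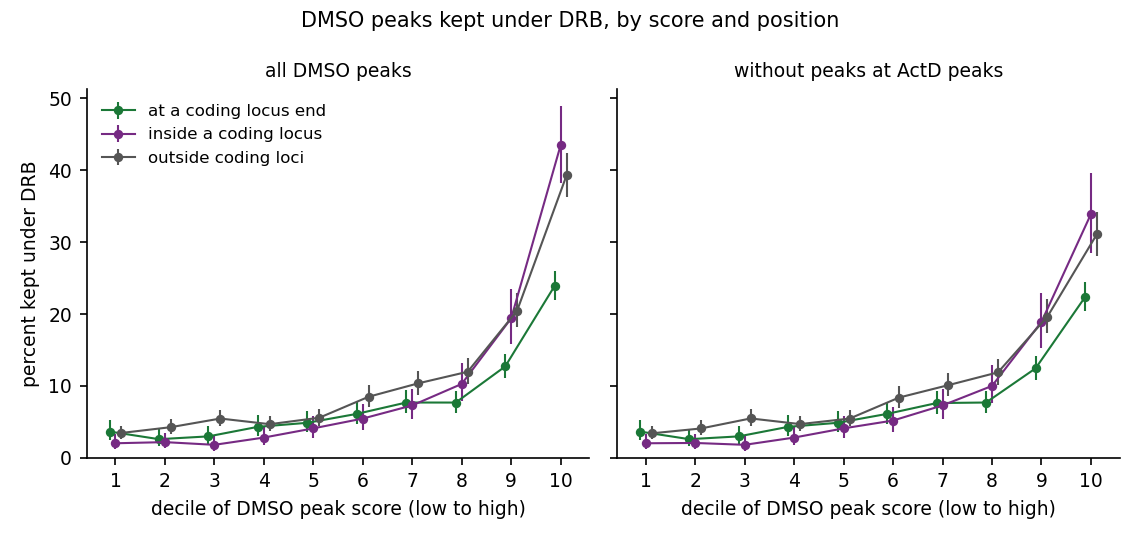
Percent of DMSO peaks kept under DRB (vertical axis) by decile of DMSO score (horizontal axis, low to high) for peaks at an end of a coding locus (green), inside one (purple) and outside (grey), for all DMSO peaks (left) and without those at an ActD peak (right). Bars are exact 95% intervals. In the highest decile the green points lie below the other 2, at 23.9% against 43.5 and 39.3% on the left.

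The strongest peaks under DRB were a distinct kind of site. All 50 of the highest DRB scores lay at a DMSO, an ActD and an FB peak, while 10 of 50 lay at hypoP (20%, 10.03 to 33.7%) and 17 of 50 at a cFB-KI peak. They were 441.5 bp wide at the median, and 5 lay at an end of a coding locus, 16 inside and 29 outside. The highest was the locus of the ribosomal RNA precursor Rn45s at chr17:39979932-39985785 (mm9), with a score of 3100 and 5854 bp under DRB and 3100 and 5858 bp under DMSO. Its ActD score was also 3100, as was the highest score of both Ser5P lists, so equal scores here do not show equal occupancy. This peak met hypoP, Ser5P and Ser2P peaks too, and the RNA of Rn45s was listed at 0. Copy number and mappability of this locus were not measured. At Erich1 a DRB peak of score 2141 lay inside the gene at chr8:14072468-14072947 (mm9), with no hypoP and no cFB-KI peak. Of the 20 highest, 5 lay inside coding loci, in Erich1, Zc3h7a, Celf4, Garnl3 and Rbfox3. Others were intergenic, such as chr7:10910682-10911231, 49981 bp from Vmn1r66, and chr12:25109808-25110346, 73099 bp from Taf1b.

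Peaks that DRB shared with ActD carried this pattern. There were 282 such DRB peaks (6.37% of the list). Of these, 25.5% met hypoP, against 61.8% of the other 4144 DRB peaks, and 41.8% met a cFB-KI peak, against 61.1%. Their median score was 210 and width 337.5 bp, against 60.5 and 170 bp. Of these peaks 14.2% lay at an end of a coding locus, against 31.9% of the rest. In the highest decile of DRB scores, 21.9% of the 201 peaks shared with ActD met hypoP and 53.3% of the 242 others. An ActD peak also met 8.82% of kept DMSO peaks and 0.212% of lost ones.

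At coding genes the sites shared with ActD lay at genes with less RNA in these cells than other kept loci had. The 44 loci with an end peak under DRB, DMSO and ActD had a median of 0.425 FPKM, against 10.9 FPKM for the 1188 kept loci without an ActD end peak. Of the 44, 19 reached 1 FPKM (43.2%, 28.3 to 59.0%). Over all 20509 coding loci the median was 1.3 FPKM and 52.5% reached 1 FPKM, a share within that interval. The 12 of highest DRB score, named in that order after their values were seen, were Npas4, Scrt1, Xkr7, Iqsec3, Cacng2, Tas1r3, Dvl1, Vstm2l, Glra1, Celsr3, Tlk2 and Rtbdn, of which Tas1r3 and Dvl1 share 1 peak. Npas4 had a score of 1318 under DRB and 1064 under DMSO, and its RNA was listed at 0 in both shCtl libraries. Scrt1, which encodes a zinc finger repressor, had 1058 under DRB and 678 under DMSO, with 0.1 and 0 FPKM. Xkr7 had 922 under DRB and 804 under DMSO, and Iqsec3 851 and 824, each with at most 0.1 FPKM. The other end of the 12 was Rtbdn, with 440 under DRB and 465 under DMSO. RNA above 1 FPKM in both shCtl libraries was found in Dvl1, a Wnt pathway gene (4.3 and 5.4 FPKM), and in Tlk2, a kinase gene (20.1 and 16.4 FPKM). Further down, the 44 included Lars2 (294 under DRB and 2527 under DMSO), the RNA-binding protein gene Pcbp2 (203 and 203), Ncl and Wdr43, all with listed RNA far above 1 FPKM. The DRB peak of Lars2 lay at its far end, and mappability there was not measured.

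Of the 5 strongest DMSO peaks without a DRB peak, 4 lay outside coding loci. The highest was at chr13:77578161-77578326 (mm9), 166 bp wide with a score of 2756, and the next lay inside Cdk5rap2 at chr4:70039142-70039304 with a score of 2493. Both met hypoP, FB and cFB-KI peaks and no ActD peak.

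DRB peaks without a DMSO peak were weak and narrow. Of DRB peaks, 66% met a DMSO peak (64.5 to 67.3%), and 87.6% met a DMSO, FB or cFB-KI peak, which left 550 (12.4%) in none of the other 3 lists. The 1507 DRB peaks off the DMSO list had a median score of 56.2 and a median width of 152 bp, against 66.9 and 195 bp for those on it. An end of a coding locus held 23.8% of them (21.7 to 26.1%), against 34.4% of the DRB peaks at a DMSO peak (32.7 to 36.2%). A hypoP peak met 46.3%, against 66.3%. The 5 strongest, however, were wide. One, of 2155 bp and a score of 411, lay on an unplaced part of chromosome 8 (8_random). Others of 2452, 1672 and 1675 bp overlapped copies of the small repeat RNA Rn4.5s on chromosome 6, with scores of 352, 326 and 305, where reads of near-identical copies cannot be placed with certainty. A further one of 2381 bp lay near Gm15319 on chromosome 8, with a score of 202.

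Occupancy of coding genes sat at starts under both treatments, and starts were kept more often than far ends. Strand could be given to 16325 of 20509 coding loci, and 13089 of them were longer than 4 kb, so that the 2 ends can be separated. A DRB peak lay within 1 kb of the start of 7.07% and of the far end of 0.481% of these loci, and a DMSO peak at 49.8 and 5.17%. Of 6512 starts with a DMSO peak, 828 also had a DRB peak (12.7%, 11.9 to 13.5%), while 45 of 677 far ends did (6.65%, 4.89 to 8.79%). DMSO scores were higher at starts too, with a median of 111 over distinct starts and 81.3 over distinct far ends. As a check of the strands, Ser2P, which accumulates past gene ends, lay at 5.14% of starts and 13.6% of far ends in its first library, and hypoP at 57.9 and 5.19%.

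Around starts, DRB peaks lay further into the gene than DMSO peaks. Of DRB peaks centred within 1 kb of a start, 64.7% were downstream of it (61.5 to 67.8%), with a median of 95 bp, against 53.4% of DMSO peaks (52.3 to 54.6%) with a median of 16 bp. The DRB peaks without a DMSO peak stood furthest in, 73.7% downstream with a median of 213 bp. At 744 starts with a peak under both treatments, the strongest DRB peak was centred downstream of the strongest DMSO peak in 60.9% (57.3 to 64.4%), by a median of 44 bp. At 169 of these starts the 2 peaks did not overlap, and the DRB peak was then downstream in 71.0% (63.5 to 77.7%). At the 575 where they overlapped, it was downstream in 57.9% (53.8 to 62.0%), by a median of 32 bp. With no other locus end within 2 kb of the start, it was downstream in 54.6% of 388 overlapping pairs (49.5 to 59.7%). For the 99 pairs there that did not overlap, the share was 79.8% (70.5 to 87.2%). At starts with no other locus end within 2 kb, the downstream shares were 64.0% for DRB and 53.8% for DMSO. The other WDR43 lists spread as widely, with 61.5% downstream for FB (median 52 bp) and 72.3% for cFB-KI (97 bp), so the DRB value lies within the range of the lists without DRB.

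**Figure D3:**
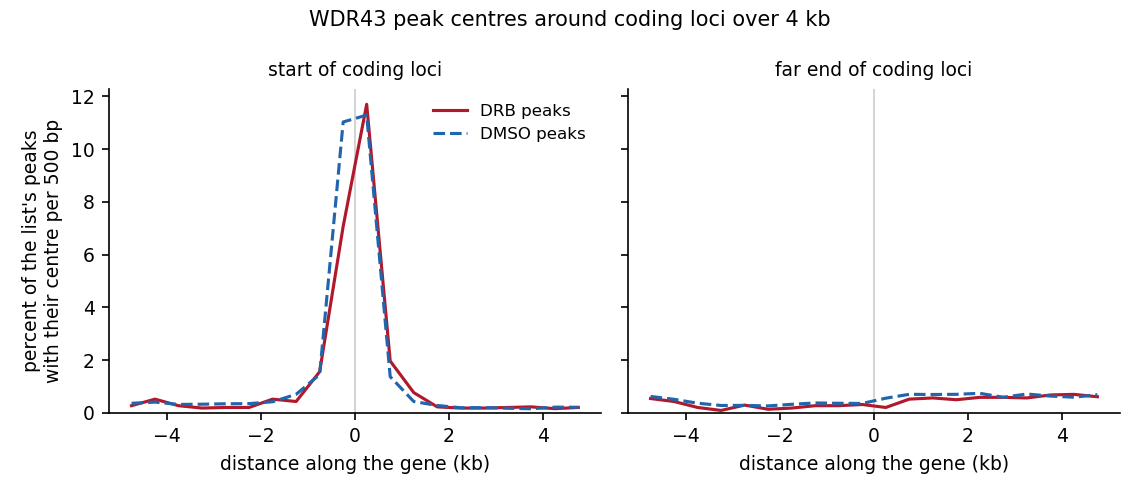
Peak centres around the start (left) and the far end (right) of coding loci over 4 kb, as percent of each list per 500 bp (vertical axis) against distance along the gene in kb (horizontal axis, positive values downstream), for DRB peaks (solid red) and DMSO peaks (dashed blue). In the 500 bp before the start stood 7.07% of DRB and 11.03% of DMSO peaks, and in the 500 bp after it 11.7 and 11.3%.

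Of the 20509 coding loci, 6.78% had an end peak under DRB and 46% under DMSO. Among the 9433 with a DMSO end peak, 1232 also had a DRB end peak (13.1%, 12.4 to 13.8%), and in 1059 (11.2%) a DMSO end peak itself overlapped a DRB peak. A DRB end peak stood at 158 of the 11076 coding loci without a DMSO end peak (1.43%). Coding loci that kept an end peak are called kept loci below.

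Kept loci had somewhat more RNA than lost loci. The median was 10.6 FPKM in kept loci (quartiles 2.65 and 32.8), against 7.80 FPKM in lost loci (1.75 and 23.2). It was 3.83 FPKM in loci with a DRB end peak only and 0.05 FPKM in loci with neither. By library, kept loci had medians of 11 and 10.4 FPKM in the 2 shCtl libraries, against 8.1 and 7.6 FPKM in lost loci. On the log2(FPKM + 1) scale, kept minus lost medians came to 0.40. Kept shares went with RNA level only in part, since 11.97% of loci under 1 FPKM kept an end peak, 9.58% of the lowest quintile above that and 16.9% of the highest quintile. Within deciles of the DMSO end-peak score the difference depended on the score. In the lowest decile, kept loci had a median of 6.1 FPKM and lost loci 2.8 FPKM, and in the highest decile 10.6 and 14.3 FPKM.

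**Figure D4:**
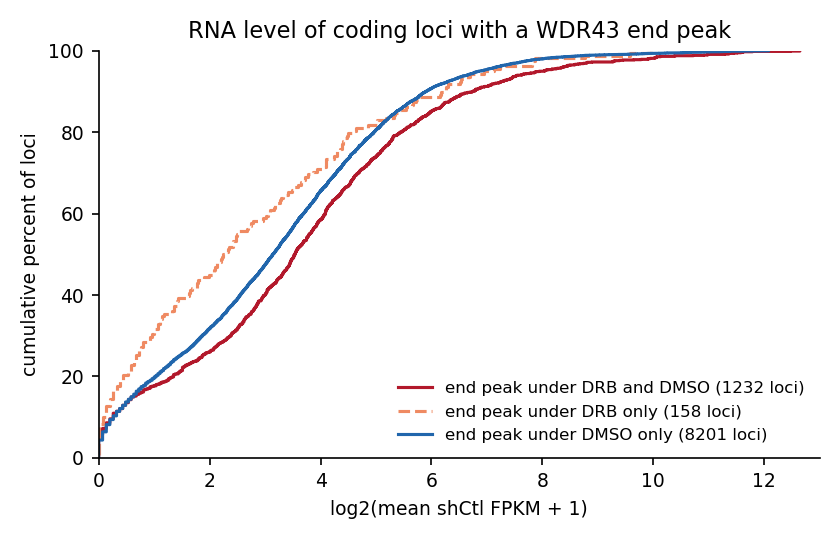
Cumulative percent of coding loci (vertical axis) by log2(mean shCtl FPKM + 1) (horizontal axis) for loci with an end peak under DRB and DMSO (solid red, 1232 loci), under DRB only (dashed orange, 158 loci) and under DMSO only (solid blue, 8201 loci). The red curve runs to the right of the blue one from about the lower quartile on, with medians of 3.54 and 3.14, and the orange one to the left at 2.27.

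Some of the most abundant messages came from kept loci and others from lost loci. The kept loci with the most RNA by listed value were Ptma, Eef1a1, Lars2, whose DRB peak lay at its far end, Rps20, Gapdh and Rpl38. Ptma, which encodes prothymosin alpha, had 6265 and 6512 FPKM in the shCtl libraries and a peak of 426 bp under DRB and 3969 bp under DMSO. Eef1a1, a translation elongation factor gene, had 5790 and 5544 FPKM and a peak of 356 bp under DRB and 732 bp under DMSO. Gapdh, the glycolytic enzyme gene, had a DRB peak of 156 bp with a score of 58.3 and a DMSO peak of 817 bp with a score of 128. The lost loci with the most RNA by listed value were Gm9846, Rpl41, Npm1, Rplp1, Rps12 and Ppia. Gm9846 has the same DMSO end-peak score, 126.56, as the ribosomal protein gene Rps27, which is listed at 0.2 FPKM in both shCtl libraries. How reads were divided between these loci was not tested. Npm1, which encodes the nucleolar protein nucleophosmin, had 3702 and 3336 FPKM and a DMSO score of 99.1, and the ribosomal protein gene Rpl41 had 3204 and 3924 FPKM and a DMSO score of 145. Kept loci listed at 0 in both shCtl libraries included Npas4, Cacng2, Vstm2l and the histone gene Hist2h2aa2. Whether a listed 0 means absent RNA was not tested, and the replication-dependent histone genes had a median of only 4.65 FPKM. The lost loci of least RNA among those of at least 1 FPKM were Rab2b, Nxph3, Kbtbd3 and Ap5b1, with DMSO scores between 168 and 295.

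Loci with an end peak under DRB only were led by Actg1, the cytoplasmic gamma actin gene, with a score of 135 and 972 and 1020 FPKM. Next came Hax1 (score 102), Atxn7l3b (98.8), Btg2 (96.6), an antiproliferative p53 target, and Orai1 (89.2), a calcium channel gene. The DRB peak was at the start in each of the 5, and at hypoP in 4 of them, Actg1 being the exception.

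Wdr43 itself was among the kept loci. At its start on chr17 (locus 71965555 to 72008371, mm9) the DRB peak was 331 bp wide with a score of 130, the DMSO peak 554 bp wide with a score of 232, and the ActD peak had a score of 50.8. Its RNA was 21.2 and 20.7 FPKM in the shWDR43 libraries and 82.3 and 78.2 FPKM in the shCtl libraries, which do not overlap.

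RNA change on WDR43 knockdown differed little between kept and lost loci. The median log2 change of shWDR43 over shCtl, on the log2(FPKM + 1) scale and for loci of at least 1 FPKM on average, was -0.47 in 1018 kept loci, -0.41 in 6612 lost loci and -0.33 in 3028 loci with no end peak, against -0.39 over all coding loci. By single library pairs, it ranged from -0.57 to -0.39 in kept and from -0.50 to -0.32 in lost loci. Highly expressed loci had lower values in both classes, from -0.07 in kept and -0.10 in lost loci of the lowest quintile of RNA level to -0.82 and -0.77 in the highest. The lowest quintile spans 1 to 4 FPKM, where the added 1 shrinks log2 changes. How much of the gradient comes from this scale was not tested. With the 5 levels weighted equally, kept minus lost was -0.0079.

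Over the gene groups below, the share of loci keeping an end peak ranged widely. Since a kept locus may hold DRB and DMSO peaks at different points, the counts below are of loci whose DMSO end peak itself overlapped a DRB peak, to be read against 11.2% of all coding loci with a DMSO end peak. The groups were chosen with earlier results of these data known and carry no test.

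Replication-dependent histone genes, which sit in clusters and share peaks, stood highest. Of 64 loci with a DMSO end peak, 30 shared it with DRB (46.9%, 34.3 to 59.8%), and counted as distinct peaks 18 of 60 were kept (30%, 18.8 to 43.2%), against 9.44% of all DMSO peaks at coding ends. The group's DMSO scores were high, with a median of 187. In the highest decile of DMSO scores, from 178 up, 23.9% of all end peaks were kept, a share within the group's interval. A comparison matched for score was not made. Hist2h3c2 and Hist2h2aa2 on chromosome 3 share 1 peak, which was 299 bp wide with a score of 132 under DRB and 2285 bp with a score of 521 under DMSO. Hist4h4 had a DMSO score of 417 and no DRB peak. Hist1h4m lies by a DMSO peak of 2436 bp that overlaps a DRB peak lying more than 1 kb from the locus, so it counts as shared here but not as a kept locus.

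Heat shock and chaperone genes followed, with 5 of 14 loci (35.7%, 12.8 to 64.9%). Counted as distinct peaks it was 4 of 16 (25%, 7.27 to 52.4%), an interval that reaches the 9.44% of all end peaks. Hspe1 and Hspd1, a divergent pair encoding the 2 parts of the mitochondrial chaperonin, share 1 promoter peak of 507 bp and score 103 under DRB and 1514 bp and score 422 under DMSO. Hspa4, Hspa8 and Hsp90ab1 were the other members, with DRB scores of 62.4, 72.9 and 55.7 and DMSO scores of 209, 70.2 and 116. Hspa9 and Hsp90aa1 had DMSO scores of 212 and 211.6 and no DRB peak, so related chaperone genes fell on both sides. The 6 kept loci, which include Dnajb6 with DRB and DMSO peaks that lie apart, had a median of 992 FPKM and the lost ones 95.5 FPKM.

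Cytosolic ribosomal protein genes shared the peak in 14 of 71 loci (19.7%, 11.2 to 30.9%), or 15 of 88 distinct peaks (17.0%, 9.87 to 26.6%). Rpl23 kept a peak of score 50.8 under DRB and 230 under DMSO, and Rps20 one of 114 under DRB and 184 under DMSO. Rpl9 had a DRB end peak of score 55.8 that did not overlap its DMSO peak of score 301. Rpl37a and Rpl27 had DMSO scores of 341 and 307 and no DRB peak. The median RNA level was 1963 FPKM in kept members and 1569 FPKM in lost ones.

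Immediate early genes, which respond to growth signals within minutes, shared it in 3 of 15 (20%, 4.33 to 48.1%). These were Jund, whose DRB peak of score 68.2 lay at its far end, Klf10 (112 under DRB and 142 under DMSO) and Ier2 (77.6 and 67.3). Dusp1 and Nr4a1 had DMSO scores of 147 and 142 and no DRB peak.

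Genes of pausing and elongation factors held DRB end peaks in 8 of 27 loci (29.6%, 13.8 to 50.2%), against 13.1% of all coding loci with a DMSO end peak. In only 3 of the 27 (11.1%, 2.35 to 29.2%) did a DMSO end peak itself overlap a DRB peak. These were Cdk7, the kinase of the initiation factor TFIIH, with scores of 52.9 under DRB and 223 under DMSO, Hexim2, which inhibits P-TEFb (60.5 and 166), and Ssrp1 of the histone chaperone FACT (69.1 and 156). In Aff1, Ccnt1, Hexim1 and Cdk13 the DRB and DMSO end peaks lay apart, with DRB scores from 52.1 to 62.0 and DMSO scores from 85.1 to 177. Tcea1 and Ell, elongation factor genes, had DMSO scores of 394 and 344 and no DRB peak.

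Ribosome synthesis genes were near or under the background. Small-subunit processome genes shared the peak in 2 of 33 (6.06%, 0.743 to 20.2%), Wdr43 and Nop56 (51.7 under DRB and 157 under DMSO). Utp3 and Cirh1a had DMSO scores of 350 and 343 and no DRB peak, while Wdr3 and Wdr46 had weak end peaks under DRB only, with scores of 53.3 and 50.3. Pol I and nucleolar scaffold genes shared it in 2 of 20 (10%, 1.23 to 31.7%). Ncl kept a peak of 409 bp under DRB and 1573 bp under DMSO, and Ubtf, the Pol I activator gene, scored 105 under DRB and 77.0 under DMSO. Wdr12 and Nolc1 had DMSO scores of 253 and 178 and no DRB peak.

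Groups with no shared peak were small ones. Pol II subunit genes shared 0 of 11 (up to 28.5%), with DMSO scores of 274 for Polr2b and 225 for Polr2j. Developmental regulators, nearly silent here, shared 0 of 17 (up to 19.5%), and Pax7, Hoxa13 and Sox1 had an end peak under DRB only, with scores of 58.5, 56.6 and 67.8. Naive pluripotency genes shared 0 of 13 (up to 24.7%). Klf2, Mycn and Trim28 among them had DRB end peaks of 93.9, 80.1 and 64.1 away from the DMSO peak. Stat3 and Tet2 had DMSO scores of 215 and 192 and no DRB peak, and Nanog one of 53.7.

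The p53 targets shared the peak in 2 of 22 (9.09%, 1.12 to 29.2%), Ei24 (108 under DRB and 274 under DMSO) and Perp (53.7 and 104). Gdf15 and Apaf1 had DMSO scores of 293 and 278 and no DRB peak. Of 7 small noncoding RNA loci, 4 had a DMSO end peak and 0 of these a DRB one (up to 60.2%), too few for a comparison. Rmrp, the RNA of an endonuclease that cleaves ribosomal RNA precursors, was among the 4, with a DMSO score of 211.

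**Figure D5:**
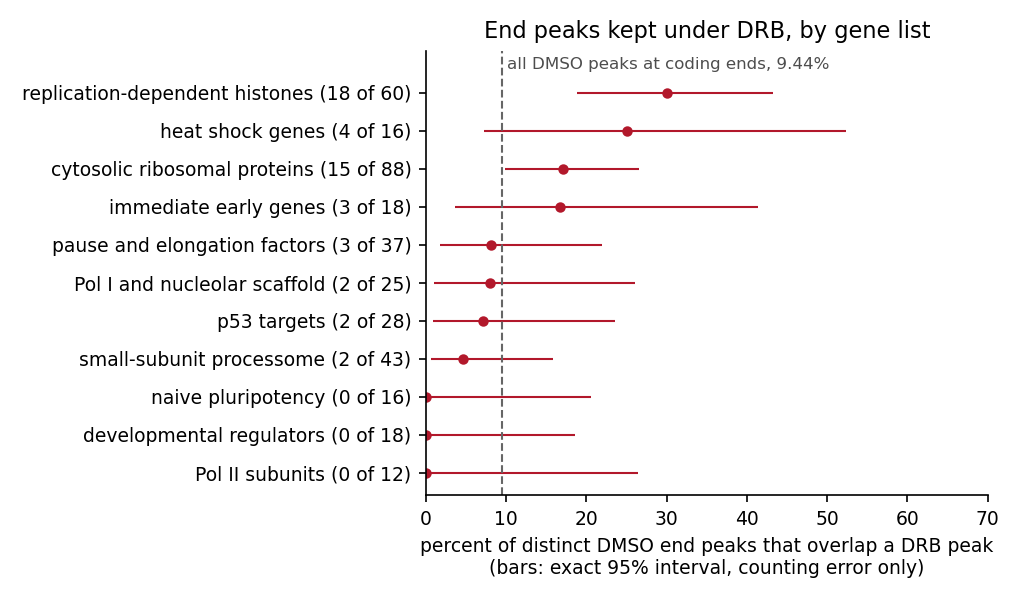
Percent of distinct DMSO end peaks that overlap a DRB peak (horizontal axis) for the 11 gene groups with at least 10 loci with such a peak (vertical axis, with counts of peaks). Points are shares, bars exact 95% intervals for counting error only, and the dashed line the 9.44% of all DMSO peaks at ends of coding loci. Histone genes stand highest at 30%, and the line lies just below the interval of ribosomal protein genes and within those of the other 9 groups. The line is not matched for DMSO score.

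Promoters of kept genes were slightly richer in CG dinucleotides than those of lost genes. Over 13635 genes with 1 promoter in the RefSeq table, the 300 bases around the start held a median of 26 CG dinucleotides in 745 kept genes, 23 in 5147 lost genes and 5 in 7645 genes with no peak there. The median GC content was 65.0, 62.3 and 50.7%. The kept median was the higher one in 10 of 10 deciles of DMSO score, by 0.5 to 5 dinucleotides.

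Motif matches, counted on both strands as letters only, were mostly alike. The CCAAT box was held by 31.4% of kept promoters (28.1 to 34.9%) and 38.8% of lost ones (37.5 to 40.2%), with 39.8% of all promoters. The GC box GGGCGG was held by 70.9% of kept, 69.8% of lost and 47.7% of all promoters, and the TATAAA box by 7.25, 6.26 and 14.0%. The E-box CACGTG stood in 13.02, 10.7 and 8.13%, and the ETS core CCGGAAG in 17.9, 21.3 and 12.4%. For TGACGTCA, CGCATGCG and GATGGCGG, the cores of CREB, NRF1 and YY1 sites, the shares of kept and lost promoters had overlapping intervals, between 3.36 and 4.83%. None of these motifs contains another.

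Chromosome X stood apart from the autosomes, and so did unplaced sequence, in both directions. Of 772 DMSO peaks on chromosome X, 17.6% were kept (15.0 to 20.5%), while the share on each autosome was between 7.18 and 10.7%. The excess was away from gene ends, with 23.6% inside coding loci and 18.1% outside on X, against 6.98 and 9.81% on all other chromosomes. At ends the share on X was 6.98% of 86 peaks (2.60 to 14.6%), against 9.46% elsewhere. The median DMSO score on X was 69.7, and inside coding loci it was 75.9 on X against 69.4 elsewhere. On unplaced sequence of chromosome Y (Y_random), 55 of 120 DMSO peaks were kept (45.8%, 36.7 to 55.2%), and on unplaced sequence of no chromosome (Un_random) 9 of 270 (3.33%). Copy number and mappability of these sequences were not measured.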

How the data were processed

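The authors deposited 1 peak list per ChIP library, with MACS peak names and a score per peak; per the submitters' processing notes reads were aligned with Bowtie2 to mm9. The caller's version, threshold and control are not stated in the sources at hand, and ChIP depth is unknown, which limits every count of peaks. The authors also deposited an RNA table with 1 value per locus and library. Its unit was taken to be FPKM, since the submitters' processing notes name TopHat and Cufflinks, and its spike-in scaling is not stated there either. Its file header says 2 biological replicates, and the nature of ChIP replicates is not stated.

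Peaks that shared 1 bp were counted as overlapping. Coding loci (RefSeq NM identifiers, 20509 of 38582) came from the RNA table, on mm9 and printed 1-based. hypoP, Ser5P and Ser2P peaks had to be met in both shCtl libraries. Strand came from RefSeq GRCm38.p6 by accession or symbol, with no coordinates carried over. The signed distance from starts was an analysis added after the data were seen. RNA was compared on log2(FPKM + 1), with a minimum of 1 FPKM for knockdown changes, and genes in overlapping loci cannot be told apart. Shares carry exact (Clopper-Pearson) 95% intervals. No test was made, as each treatment has 1 library. The overlap and distance steps were tested on simulated data. Named peaks are the 5 highest per set. Named loci are the 6 of most and 4 of least RNA among kept and lost loci (lost ones of at least 1 FPKM), the 5 highest with a DRB end peak only, the 2 highest kept and lost of each gene group, and Wdr43; the text says which sites shared with ActD were picked later, and the remaining members of groups and DRB peaks below the 5 highest were also named after their values were seen. A locus that this rule picks is not reported here. The members and gene groups were chosen with earlier results of these data known. Alternatives were other overlaps, distances, score minimums, base lists, pseudocounts and filters, and leaving out each RNA library. Python 3.11.15, pandas 2.3.3, numpy 2.4.6 and scipy 1.17.1 were used.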

Additional observations from a re-analysis of the deposited data

How the results depend on the processing

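The DRB list was 14.2% as long as the DMSO list; at scores of at least 100 and 200 it was 6.39 and 7.94%, against the FB list 10.7% and against the cFB-KI list 20.5%. The share of DMSO peaks kept, 9.30%, was 8.34% when 50% of the shorter peak had to be shared, 11.6% with centres within 500 bp, 5.24 and 7.04% at scores of at least 100 and 200 in both lists, 8.56% without peaks at ActD peaks and 27.6% for the highest DMSO scores (added after the data were seen). It moved by less than its interval without chromosome Y, M and unplaced sequences. The share of DRB peaks at a DMSO peak, 66.0%, was 60.6% with 50% of the shorter peak, 73.5% with centres within 500 bp, 81.1% for FB, 59.9% for cFB-KI, 87.6% for the 3 lists joined, and 81.6 and 88.7% at scores of at least 100 and 200. The end share of kept minus lost peaks, 0.56 points, was 1.20 at 500 bp, 0.44 with peak centres and 2.26 without ActD peaks (added later). It turned to -0.51 at 2 kb, to -5.94 with score deciles weighted equally and to -4.96 with that and without ActD peaks (added later). The cause of the change in sign was not tested. The share of coding loci keeping an end peak, 13.1%, was 12.2% at 500 bp, 13.9% at 2 kb and 11.2% when the DMSO peak itself had to be met (added later).

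Kept minus lost RNA, 0.40 on the log2 scale, was 0.44 with a pseudocount of 0.1, 0.45 with 0.01, 0.36 at 1 FPKM or more, 0.36 with score deciles weighted equally, 0.38 at 500 bp and 0.35 at 2 kb. Added later, it was 0.44 without ActD peaks, 0.32 when the DMSO peak itself had to be met and 0.38 at starts only. Without each shCtl library in turn it was 0.40 to 0.41. Kept minus lost knockdown change, -0.068, was -0.055 with no filter and -0.0079 with expression quintiles weighted equally, and without each RNA library in turn it was -0.081 to -0.046. With the replicate block, taken as the mean over same-numbered libraries (added later), it was -0.066, from -0.060 and -0.072 in the 2 pairs. The deviations of same-numbered libraries correlated at 0.107 over 10769 coding loci, and with 2 pairs the libraries share only a number. The limits are those of 1 library per treatment: unknown depth, a score set by the caller, and no replicate spread. A lower kept share and a less sensitive DRB library cannot be told apart. RNA came from other cells, none treated with DRB.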
